A study of Homo sapiens with 4 samples.

Results

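RNA of a library labelled as K562 cells given R-Exo vesicles was compared with RNA of the imatinib-resistant K562 line, gene by gene, in the 1320 of 2288 genes with an Ensembl identifier that had at least 1 FPKM (sequenced fragments scaled to gene length and library size) in at least 1 of the pair of libraries. K562 is an established line of chronic myeloid leukaemia. The deposited table held 3200 rows, and its name says that they are genes called differentially expressed, so every share below describes a set that had already been selected. Each of the 4 groups had 1 library. No difference could therefore be set against a spread between replicates, and only sizes are given.

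The parental cells were wild-type K562 with no vesicles, and the resistant cells were the line K562/IMR, also with no vesicles. The R-Exo and S-Exo groups were labelled as K562 cells given the vesicles for 48 h. R-Exo and S-Exo were read from the series title and design text as exosomes of imatinib-resistant and imatinib-sensitive cells. All groups were grown in RPMI medium with serum, and no label says that imatinib was present at harvest, how resistance was selected or whether the resistant line is 1 clone. The tissue label reads peripheral blood for every sample, although K562 is a cultured line. RNA was selected by its poly-A tail, and the protocol does not state that the libraries kept the strand.

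K562 cells carry the BCR-ABL fusion, a tyrosine kinase that imatinib inhibits. ABCB1 encodes a membrane pump that exports many drugs, and its gain is a known route to drug resistance. Exosomes are small vesicles that cells release and that carry proteins and RNA to other cells. Many annotated genes share sequence with others. A readthrough model joins the exons of adjacent genes into 1 transcript, and gene families such as GAGE hold nearly identical copies. A short read from a shared stretch therefore fits several models, and how it is counted depends on the counting program.

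The R-Exo library went against its label as parental-derived cells and lay close to the resistant line. Of 8 genes with at least 5 FPKM in parental and listed at 0 in resistant, among them SYK, SSX2 and CBR1, all 8 were listed at 0 in R-Exo too. Their lowest value in S-Exo was 4.33 FPKM. Of 5 genes with at least 5 FPKM in resistant and listed at 0 in parental, 4 had at least 5 FPKM in R-Exo. Among them were CROT with 111 FPKM in resistant and 90.3 in R-Exo, FKBP10 with 22.3 and 19.7, and ETS1 with 5.76 and 6.17. The exception was INO80B-WBP1. ABCB1 had 0.222 FPKM in parental, 0.0985 in S-Exo, 778 in resistant and 677 in R-Exo. Which cells the R-Exo library holds was not tested beyond these values, and "R-Exo" below means the library labelled so.

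Markers placed both libraries in the same lineage. Of 12 K562 markers fixed for the check, 4 were listed. HBZ, the embryonic zeta-globin gene, had 1101 FPKM in resistant and 1253 in R-Exo, and the transferrin receptor gene TFRC had 114 and 98.6. Of 32 markers of fibroblasts, lymphocytes, macrophages, epithelium and endothelium, 3 were listed. CD3D, a T-cell receptor subunit, had 8.85 and 7.27 FPKM, and the collagen genes COL1A1 and COL1A2 were under 1 FPKM in both. A marker that is not listed may have been left out by the authors' selection.

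The pair of profiles differed little for most genes. The values of log2 (FPKM + 1) in R-Exo and resistant had a Pearson's r of 0.980 across all 2288 genes, a description across genes and not across replicates. The median log2 difference, R-Exo minus resistant, was −0.11, and its quartiles were −0.27 and 0.09. R-Exo was below resistant in 861 of the 1320 genes and above it in 459. A difference under 1.5-fold was found in 1202 genes (91.1%). The downward shift of the median is carried by every value below, and values relative to it are given where they bear on a list. The FPKM of all listed genes summed to 20852 in resistant and 21160 in R-Exo.

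S-Exo against parental, a pair that shares no library with the first, served as a yardstick. In 1269 genes compared by the same rule, the median difference was −0.0014 and the median absolute difference 0.14, against 0.20 for R-Exo and resistant. Pearson's r was 0.981. With a limit of 2-fold (a log2 difference of 1 on FPKM + 1), 22 genes (1.67% of the 1320) were higher in R-Exo than in resistant and 18 (1.36%) were lower, together 40 (3.03%). In the S-Exo pair 25 genes (1.97%) were higher and 15 (1.18%) lower, together 40 (3.15%). The number past the limit was the same in both pairs at this setting. With some other settings the counts parted and more genes were lower than higher in R-Exo: 47 higher and 71 lower at 1.5-fold, beside 52 and 37 in the S-Exo pair, and 38 and 57 with the plain ratio of FPKM, beside 49 and 28.

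**Figure D1:**
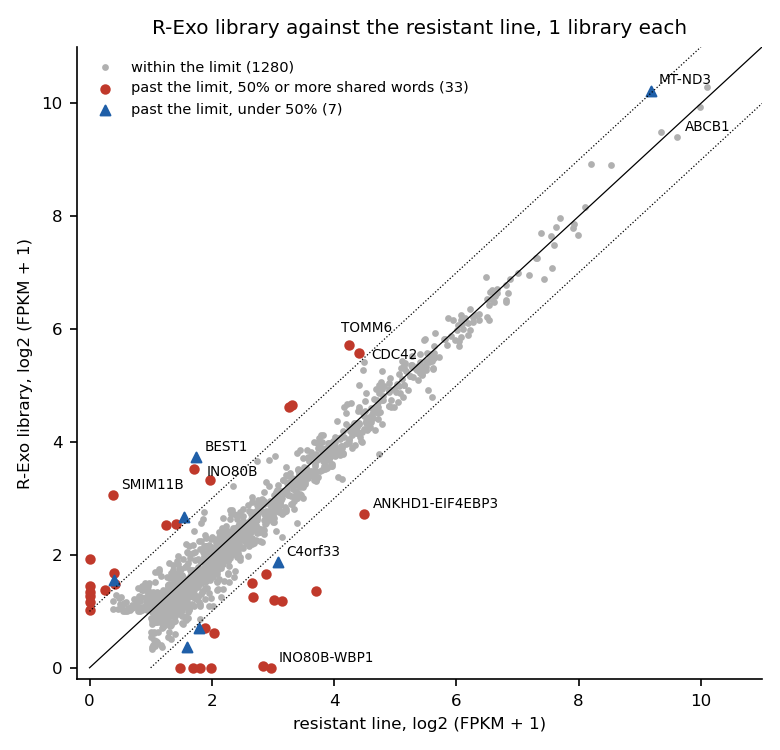
Each point is 1 of 1320 genes, with log2 (FPKM + 1) in the resistant library on the x axis and in the R-Exo library on the y axis. The solid line marks equal values and the dotted lines the 2-fold limit. Red points are the 33 genes past the limit that share 50% or more of their sequence words with other genes, and blue triangles are the other 7. MT-ND3 is the only gene past the limit in the upper right of the plot.

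The genes past the limit were mostly gene models that share sequence with others. For each gene, the share of its distinct 31-base words that also occur in transcripts of another protein-coding gene was counted in GENCODE release 29. In 124 of the 1320 genes (9.39%) this share was 50% or more, and these 124 held 33 of the 40 genes past the limit (82.5%), 18 higher and 15 lower. In the 989 genes with a share under 10%, 2 were past the limit (0.202%), against 26.6% of the 124. The spread followed the same order: the 5th and 95th percentiles of the difference were −0.50 and 0.37 in the 989 genes and −1.80 and 1.35 in the 124. An exon overlap with another gene on the same strand was annotated for 32 of the 40 genes (80%) and for 204 of all 1320 (15.5%). The pattern of shares held in the S-Exo pair. There, genes with 50% or more shared words made up 31 of 40 past the limit (77.5%) and 132 of the 1269 compared (10.4%).

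That percentage depended on the limit and the scale. It was 82.9% after re-scaling, 87.2% after quantile normalization and 80% with a minimum of 5 FPKM. It was 52.9% with a pseudocount of 0.1, 42.4% with a limit of 1.5-fold and 40% with the plain ratio of FPKM. Counting genes with 10% or more shared words gave 95%, and with 90% or more gave 57.5%. Whether read assignment between models accounts for these differences was not tested, since reads and the counting tool were not used here.

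**Figure D2:**
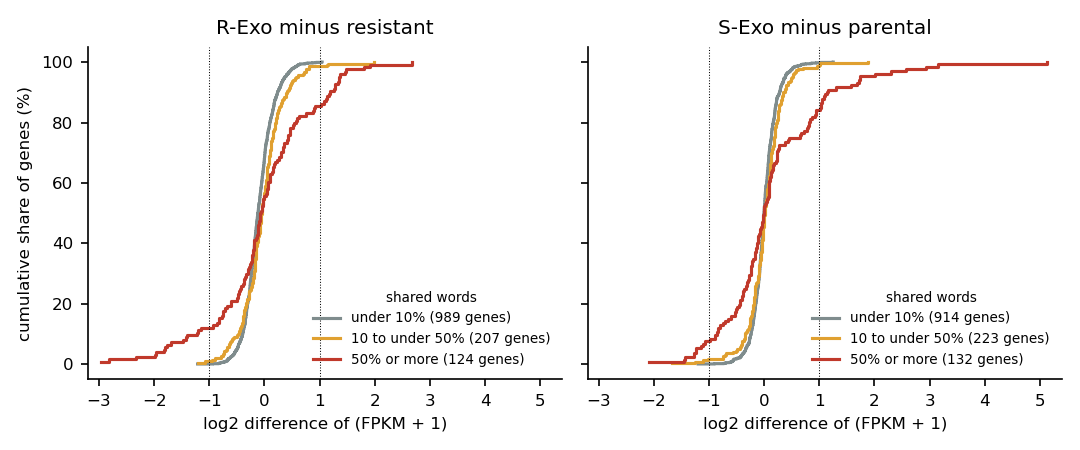
Cumulative share of genes (y axis, percent) against the log2 difference of (FPKM + 1) (x axis), for R-Exo minus resistant on the left and S-Exo minus parental on the right, by the share of sequence words that a gene has in common with other genes. Dotted lines mark the 2-fold limit. The curve of genes with 50% or more shared words is the widest in both panels, and 26.6% of these genes lie past the limit on the left and 23.5% on the right.

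The lowest gene of all was INO80B-WBP1, a readthrough model on chr2:74455088-74460884 that joins INO80B, a subunit of the INO80 chromatin remodelling complex, to its neighbour WBP1. It had 6.79 FPKM in resistant, and the other 3 libraries list it at 0. INO80B had 2.28 FPKM in resistant, 10.4 in R-Exo, 10.9 in parental and 12.8 in S-Exo. The resistant library thus stood apart from the other 3 for both models. WBP1 was 7.16, 12.5, 16.9 and 17.6 FPKM in the same order, again lowest in resistant. The log2 differences, R-Exo minus resistant, were −2.96 for INO80B-WBP1, 1.80 for INO80B and 0.72 for WBP1. When the FPKM of all models of the locus were multiplied by their exonic lengths in release 29 and summed, the log2 ratio of the sums was 0.41.

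The joint that sets such a model apart from its parts is short. The stretch of coding sequence around it is shown for INO80B-WBP1 and for TVP23C-CDRT4 (chr17:15436021-15563561), since a read across it fits the readthrough and neither gene alone. The sequences are from GENCODE release 29 (GRCh38), read 5′ to 3′. The upstream gene is in lower case, and the next 28 bases of the transcript, from the downstream gene, are in capitals.
INO80B-WBP1: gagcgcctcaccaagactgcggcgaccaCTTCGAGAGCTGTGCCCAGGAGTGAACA
TVP23C-CDRT4: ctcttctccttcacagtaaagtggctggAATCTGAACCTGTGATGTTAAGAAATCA
The first transcript has 1668 bases, of which 762 are found in INO80B and 906 in WBP1. The second has 2833, of which 576 are found in TVP23C and 2259 in CDRT4. The last 2 lower-case bases of the second sequence fit both genes, so its boundary is uncertain by 2 bases.

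TVP23C-CDRT4 was listed at 0 in R-Exo, whereas it had 2.22 FPKM in resistant, 1.88 in parental and 1.78 in S-Exo. Here R-Exo was the library that stood apart. CDRT4 had 0.196 FPKM in resistant and 1.60 in R-Exo, a log2 difference of 1.12. The length-weighted sum over the 3 listed models of this locus differed by 0.33.

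Of 30 listed genes with a readthrough name, 13 were compared, 2 were higher, 4 were lower and 7 were within the limit. The 6 past the limit are 46.2% of the 13, beside 3.03% of all 1320 genes and 26.6% of the genes with 50% or more shared words, to which all 13 belong. Their median was −0.01, beside −0.11 for all 1320 genes, but −0.89 in the 4 of them with at least 5 FPKM, of which 2 were lower past the limit. JMJD7-PLA2G4B had 1.41 FPKM in R-Exo and was listed at 0 in resistant, and PMF1-BGLAP had 4.84 and 1.66. TRIM39-RPP21 had 2.50 FPKM in resistant and was listed at 0 in the other 3 libraries. HNRNPUL2-BSCL2 was nearly level, with 7.74 FPKM in R-Exo and 7.78 in resistant. Readthrough models past the limit therefore lay on both sides.

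At loci with a model past the limit, overlapping models lay on opposite sides. At 11 loci at least 2 overlapping models were listed and at least 1 was past the limit, and at all 11 some models were higher and others lower in R-Exo. The length-weighted sum differed by less than 2-fold at 10 of them. The exception was the RAB4B locus (−1.17), which encodes a small GTPase of endosomes, where values were low: RAB4B had 2.005 FPKM in resistant and 0.298 in R-Exo. With the plain sum of FPKM, all 11 were under 2-fold. Of all 1320 genes, 3.03% were past the 2-fold limit. Any difference above or below 0 counted as a side, whatever the size or level, and 459 of all 1320 genes were above 0. The share of loci with models on both sides among those without a model past the limit is not given here. Models on opposite sides offset each other in a sum, and loci without a model past the limit were not summed. The sums hold listed models only, so overlapping genes that the authors' selection left out are missing from them. The lengths behind the deposited FPKM are not known here, so these sums are approximate.

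ANKHD1, an ankyrin-repeat protein gene, had 8.55 FPKM in resistant, 23.7 in R-Exo, 14.7 in parental and 13.3 in S-Exo. Its readthrough ANKHD1-EIF4EBP3 (chr5:140401908-140549569) had 21.5, 5.60, 16.9 and 14.2 FPKM in the same order. The resistant and R-Exo libraries were the extremes for both models, in opposite order, while the sum of these models differed by −0.05. EIF4EBP3, which overlaps the readthrough, is not listed and not in the sum.

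CDC42, a small GTPase that controls the actin skeleton, lies at chr1:22052627-22092946 and overlaps the longer model AL031281.2. CDC42 had 20.2 FPKM in resistant, 47.0 in R-Exo, 105 in parental and 81.6 in S-Exo. AL031281.2 had 16.5, 9.17, 3.16 and 7.36 FPKM in the same order. CDC42 was thus lowest, and AL031281.2 highest, in resistant. Their log2 differences were 1.18 and −0.78, and the locus sum differed by 0.11.

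ZBED6, a transcription factor derived from a DNA transposon, lies within ZC3H11A, an mRNA export factor gene at chr1:203795654-203854999. ZBED6 had 8.97 FPKM in resistant, 24.2 in R-Exo, 5.36 in parental and 4.40 in S-Exo. ZC3H11A had 45.5, 29.4, 22.8 and 27.1 FPKM in the same order. R-Exo was highest for the first and resistant for the second, and the sum of the locus differed by −0.03.

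MFSD14A, a transporter-family gene, was just outside the limit with 5.71 FPKM in resistant, 11.7 in R-Exo, 19.0 in parental and 17.9 in S-Exo. The overlapping AC118553.2 had 6.15 FPKM in resistant, 0.0171 in R-Exo, 0.423 in parental and 1.92 in S-Exo, with a log2 difference of −2.81. KIAA0391, the catalytic subunit of mitochondrial RNase P, was 6.65 and 11.8 FPKM in resistant and R-Exo, while AL121594.1, which overlaps it, was 12.0 and 1.58. In both loci the named gene was higher and the overlapping model lower in R-Exo, and the sums of the listed models differed by −0.60 and −0.06. SLC35A3 and PSMA6, which also overlap AC118553.2 and AL121594.1 respectively, are not listed and so are not in these sums.

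**Figure D3:**
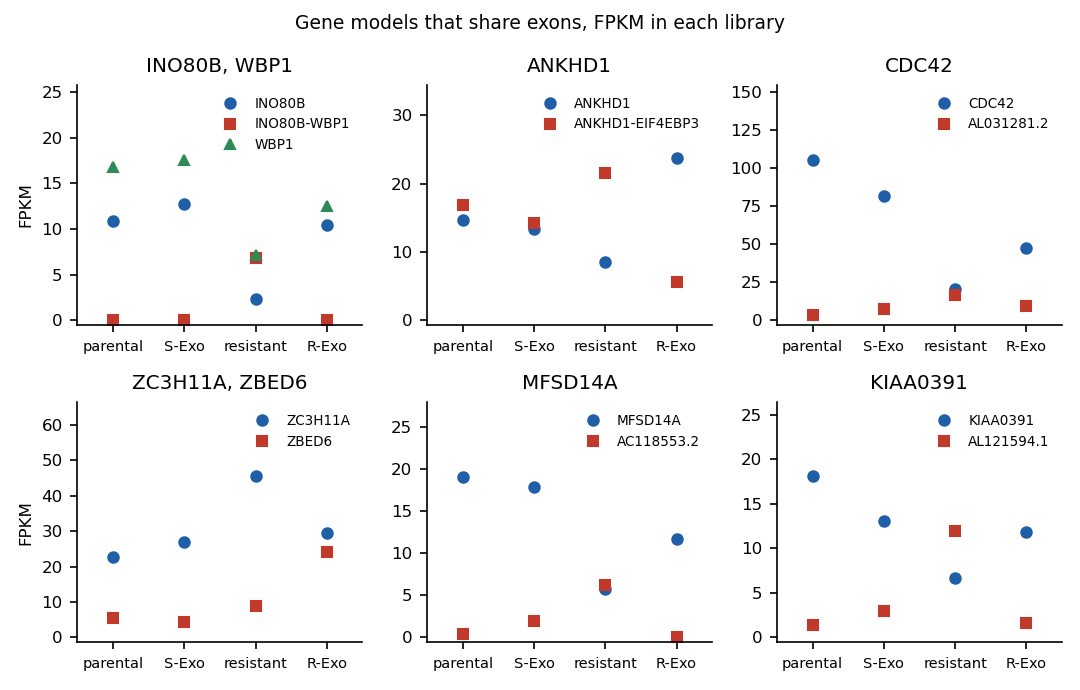
FPKM (y axis) of overlapping gene models in the 4 libraries (x axis), 1 panel per locus and 1 point per library and model. In the resistant library INO80B-WBP1 stands at 6.79 FPKM and in the other libraries at 0, and at the ANKHD1 locus the models change places between resistant (8.55 and 21.5 FPKM) and R-Exo (23.7 and 5.60 FPKM).

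Further overlapping models were past the limit. AL157935.2 and the sialyltransferase gene ST6GALNAC6 overlap on chromosome 9. The first had 1.39 FPKM in resistant and 4.78 in R-Exo, and the second 5.397 and 1.37. UPK3BL1 on chromosome 7 had 2.92 and 8.997 FPKM, while AC105052.3, which overlaps it, had 7.86 and 1.26. OVCA2, which overlaps DPH1, was listed at 0 in resistant and had 2.79 FPKM in R-Exo. A second gene model named SCO2, which overlaps TYMP and the other model of that name (SCO2 is a copper chaperone for cytochrome c oxidase), had 1.78 FPKM in resistant and was listed at 0 in R-Exo. This value is not the level of the SCO2 gene as a whole. AC138811.2, which overlaps RPS15A and ARL6IP1, had 7.07 and 1.29 FPKM. Of all compared genes, 6 were listed at 0 in resistant and 5 in R-Exo.

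Near-identical gene copies formed a further group. SMIM11B, a small membrane protein gene on chromosome 21, had the highest difference of all, with 0.301 FPKM in resistant, 7.32 in R-Exo, 2.25 in parental and 9.65 in S-Exo. This is 24.3-fold in plain FPKM and 2.68 on the log2 scale. S-Exo was also above parental. The 204 coding bases of the transcript shown are identical to those of a transcript of SMIM11A, a copy that is not among the listed rows, and their first 90 bases are shown to make plain that no read from this stretch can tell the copies apart (GENCODE release 29, chr21:7744983-7772253, plus strand, 5′ to 3′).
SMIM11B: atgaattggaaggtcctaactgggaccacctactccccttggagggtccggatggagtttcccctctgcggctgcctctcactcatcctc

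The GAGE genes on the X chromosome encode cancer-testis antigens, proteins normally made in the germ line and found in some tumours. GAGE12F had 2.72 FPKM in resistant, 0.621 in R-Exo, 1.66 in parental and 1.84 in S-Exo. GAGE12H was listed at 0 in resistant and had 1.04 FPKM in R-Exo, 1.98 in parental and 2.18 in S-Exo. The copies thus lay on opposite sides. Their 351 coding bases differ at 2 positions, C148T and G172A (GAGE12F base first, counted from the first coding base). Bases 130 to 190 are shown from the same release, plus strand, with the differing bases in capitals.
GAGE12F: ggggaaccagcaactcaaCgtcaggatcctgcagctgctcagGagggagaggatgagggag
GAGE12H: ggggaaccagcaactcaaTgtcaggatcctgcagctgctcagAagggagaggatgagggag

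Of 15 compared members of the cancer-testis antigen list, these 2 were past the limit (13.3%, beside 3.03% of all genes) and the median was −0.03. GAGE1 had 47.4 FPKM in resistant and 27.0 in R-Exo. XAGE1B had 43.9 and 56.1, and MAGEC2 had 59.5 and 58.2. Levels of single family members are uncertain, since 9 of the 15 share 50% or more of their words with other genes. LIMS4, whose 351 coding bases are identical to those of LIMS3, had 0.327 FPKM in resistant and 2.22 in R-Exo. NPIPA3 had 0.330 and 1.80. CT45A9, a cancer-testis antigen gene that the list did not include, was also past the limit, listed at 0 in resistant with 1.54 FPKM in R-Exo.

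TOMM6 and TOMM7 encode small subunits of the translocase that imports proteins through the outer mitochondrial membrane. TOMM6, all of whose words occur in the overlapping AL365205.1 or other genes, had 17.96 FPKM in resistant, 51.8 in R-Exo, 12.6 in parental and 121 in S-Exo. R-Exo was above resistant and S-Exo above parental. TOMM7 had 20.1, 31.1, 58.8 and 56.0 FPKM in the same order, so R-Exo was above resistant but S-Exo was level with parental.

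The 7 genes past the limit with under 50% shared words were BEST1, PET100, IRF9, MT-ND3, C4orf33, RAB4B and AC007240.1. BEST1, a chloride channel gene, had 2.35 FPKM in resistant, 12.3 in R-Exo, 8.37 in parental and 2.94 in S-Exo. Its exons overlap FTH1 on the opposite strand, and 17.7% of its words are shared with other genes. PET100, an assembly factor of cytochrome c oxidase, had 1.92, 5.39, 5.77 and 7.12 FPKM in the same order. IRF9, the DNA-binding subunit of the interferon-activated complex ISGF3, had 0.324 FPKM in resistant and 1.95 in R-Exo, and 49.9% of its words are shared. Its level was under 1 FPKM in parental and S-Exo as well.

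The 2 genes past the limit with under 10% shared words were MT-ND3 and C4orf33. MT-ND3, a mitochondrially encoded subunit of respiratory complex I, had 579 FPKM in resistant, 1196 in R-Exo, 877 in parental and 1060 in S-Exo. Resistant was the lowest and R-Exo the highest of the 4, and the log2 difference was 1.05, or 0.89 and so within the limit after quantile normalization. It is the only mitochondrially encoded gene listed. C4orf33, which overlaps SCLT1 on the opposite strand, had 7.51 FPKM in resistant, 2.67 in R-Exo, 6.18 in parental and 6.61 in S-Exo, so R-Exo was the low library, with a log2 difference of −1.21.

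Just inside the limit on the higher side, among genes with at least 5 FPKM, were CDC42 (1.18), PET100 (1.13) and MT-ND3 (1.05). Just outside it were RPL37 (0.93), MFSD14A (0.92) and AL031847.2 (0.89). On the lower side HIST2H3D (−1.15), C4orf33 (−1.21) and AL136295.4 (−1.23) were just inside. KRT10 (−0.93), LPGAT1 (−0.82) and TREX2 (−0.82) were just outside. KRT10, a keratin gene, had 25.5 FPKM in resistant, 12.9 in R-Exo, 37.1 in parental and 38.2 in S-Exo, and R-Exo was again the low library. It overlaps TMEM99 on the opposite strand. LPGAT1, a lysophospholipid acyltransferase gene, had 7.83, 4.004, 2.86 and 5.94 FPKM in the same order.

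The ribosomal protein genes that the authors' selection kept were higher as a list. All 5 that were listed lay above 0 (beside 459 of all 1320 genes), and none passed the limit (beside 3.03%). Their median was 0.38, or 0.49 relative to the median of all genes. Relative to the median of all genes RPL37 was past the limit, at 1.04. After quantile normalization the list's median was 0.14. RPL37 had 21.5 FPKM in resistant, 42.0 in R-Exo, 63.4 in parental and 70.6 in S-Exo. RPS27 had 293, 487, 570 and 611 FPKM in the same order, and RPS25 had 368, 480, 863 and 912. RPL32 (166 and 207 FPKM in resistant and R-Exo) and RPL35A (186 and 199) differed less. In all 5 genes R-Exo lay above resistant and below parental and S-Exo. The listed 5 were thus all lower in resistant than in parental, and how the authors' selection bears on this order was not tested. The share of all genes with this order is not given here. COX7C, a small subunit of cytochrome c oxidase, had 88.7 FPKM in resistant, 121 in R-Exo, 181 in parental and 162 in S-Exo, so R-Exo again lay between resistant and the other pair. SDHD, a subunit of respiratory complex II and the other compared nuclear respiratory chain gene, went the other way, with 111 FPKM in resistant, 88.4 in R-Exo, 196 in parental and 187 in S-Exo. Ribosomal protein genes have many processed pseudogenes, which the count of shared words left out, so their levels are uncertain to that extent.

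Transcript length moved slightly with the difference. In 4 equal groups of genes from short to long exonic length, the median differences were −0.05, −0.09, −0.10 and −0.15, and Spearman's rho across the 1320 genes was −0.10. The part of length in the ribosomal values was not tested. Across chromosomes with at least 15 genes, medians ran from −0.24 on chromosome 16 to −0.02 on chromosomes 9 and 22.

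**Figure D4:**
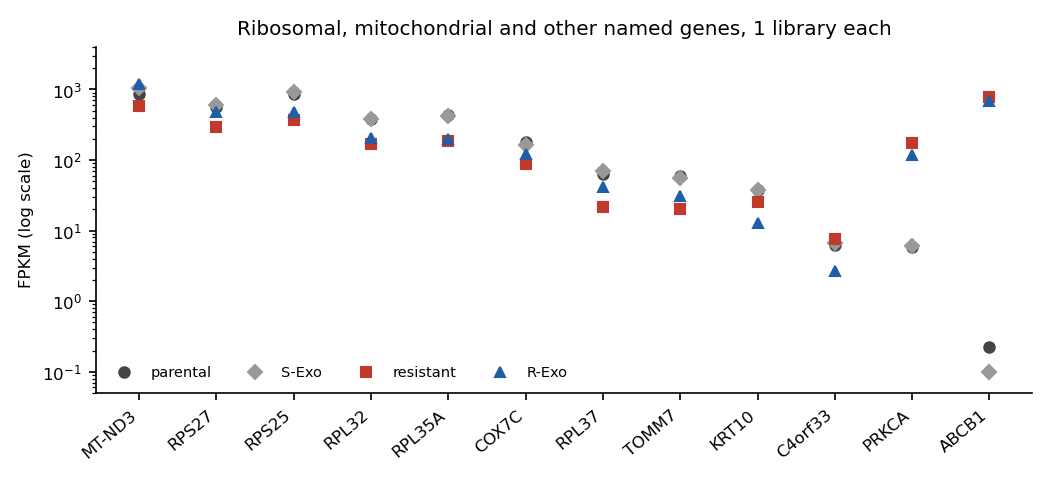
FPKM on a log axis (y) of named genes (x axis) in the 4 libraries, 1 point per library. For the 5 ribosomal protein genes, COX7C and TOMM7 the R-Exo value lies between resistant and the other 2 libraries, for example 42.0 FPKM for RPL37 between 21.5 and 63.4, while for C4orf33 and KRT10 the R-Exo value is the lowest of the 4.

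The list of genes around ABCB1 on 7q21 had 25 compared members, none past the limit (beside 3.03% of all genes), 20 below 0 (beside 861 of all 1320) and a median of −0.13, close to that of all genes. DBF4, a regulator of the CDC7 replication kinase, had 1013 FPKM in resistant and 975 in R-Exo, beside 44.6 in parental. SLC25A40 had 254 and 203, beside 9.64 in parental. AKAP9, a scaffold protein for protein kinase A, was higher in R-Exo, with 16.8 FPKM in resistant, 23.7 in R-Exo, 3.90 in parental and 6.77 in S-Exo. ABCB1 itself differed by −0.20, or −0.10 relative to the median of all genes.

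PRKCA, a protein kinase C gene, was among the lower of the abundant genes with few shared words. It had 172 FPKM in resistant, 118 in R-Exo, 5.79 in parental and 6.13 in S-Exo, and differed by −0.54. NARF had 189, 134, 96.5 and 82.7 FPKM in the same order. EED, a subunit of the Polycomb repressive complex PRC2, had 26.7 FPKM in resistant and 18.9 in R-Exo, and the acyltransferase gene LPCAT2 had 6.08 and 3.70. All 4 were lower in R-Exo by less than 2-fold. FGF13 had 18.3 and 24.95 FPKM and the nucleosome-binding protein gene HMGN5 had 9.51 and 12.9, both higher in R-Exo. NARF, EED, FGF13 and HMGN5 were chosen after their values were seen.

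Gene lists of pathways and cell types mostly stayed near the overall median. Of 32 lists, 21 had at least 5 compared members, and their medians ran from −0.31 to 0.38. Of 248 compared genes in any list other than readthrough models, 5 were past the limit (2.02%, beside 3.03% of all genes): MT-ND3, IRF9, GAGE12F, GAGE12H and HIST2H3D. HIST2H3D, a replication-dependent histone gene with 84.3% shared words, had 5.32 FPKM in resistant and 1.85 in R-Exo. Such histone messages mostly lack a poly-A tail, so their level in poly-A libraries is uncertain. The 21 compared histone genes had a median of −0.13.

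The erythroid and globin list had 13 compared members, none past the limit (beside 3.03% of all genes). Its median was −0.11, the same to 2 decimals as that of all genes. CA2, a carbonic anhydrase gene, had 25.2 FPKM in resistant and 20.3 in R-Exo, and GYPB, a glycophorin gene, had 89.9 and 91.7. The cholesterol and fatty acid list had a median of −0.31, or −0.21 relative to all genes. It had 6 of 6 members below 0 (beside 861 of all 1320 genes) and none past the limit (beside 3.03% of all genes). With a minimum of 5 FPKM its median was −0.18. APOE, a lipid transport protein gene, had 1.02 FPKM in resistant and 0.459 in R-Exo, and MVD, an enzyme of the mevalonate pathway, had 33.9 and 26.8. The cell cycle list had 5 of 5 members below 0 (beside 861 of all 1320 genes). Its median was −0.30, or −0.19 relative to all genes. Among its members CDK6 had 42.6 and 35.3 FPKM and the retinoblastoma gene RB1 had 14.5 and 11.3. CDK6 and a further member, DBF4, are also in the list of genes around ABCB1.

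The interferon list had 12 compared members, of which IRF9 was past the limit (8.33%, beside 3.03% of all genes), and a median of −0.15, or −0.023 both with no filter and with a minimum of 5 FPKM. ISG15 had 4.82 FPKM in resistant and 4.86 in R-Exo, and IFI6 had 1.79 and 0.935. Of 10 ERK feedback and immediate early genes none was past the limit (beside 3.03% of all genes). FOS had 9.19 FPKM in resistant and 6.76 in R-Exo, and SPRY2, an inhibitor of the same pathway, had 2.75 and 3.93. Of 9 drug metabolism genes none was past the limit (beside 3.03% of all genes). ALDH1A1, an aldehyde dehydrogenase gene, had 2.45 FPKM in resistant, 1.24 in R-Exo, 22.8 in parental and 23.3 in S-Exo. The megakaryocyte and platelet list had a median of 0.17 over 5 members, which turned to −0.072 with no filter and −0.083 with a minimum of 5 FPKM. Its member ITGA2B, the platelet integrin alpha-IIb, had 18.5 FPKM in resistant and 16.4 in R-Exo, and CD36 had 8.45 and 9.60.

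**Figure D5:**
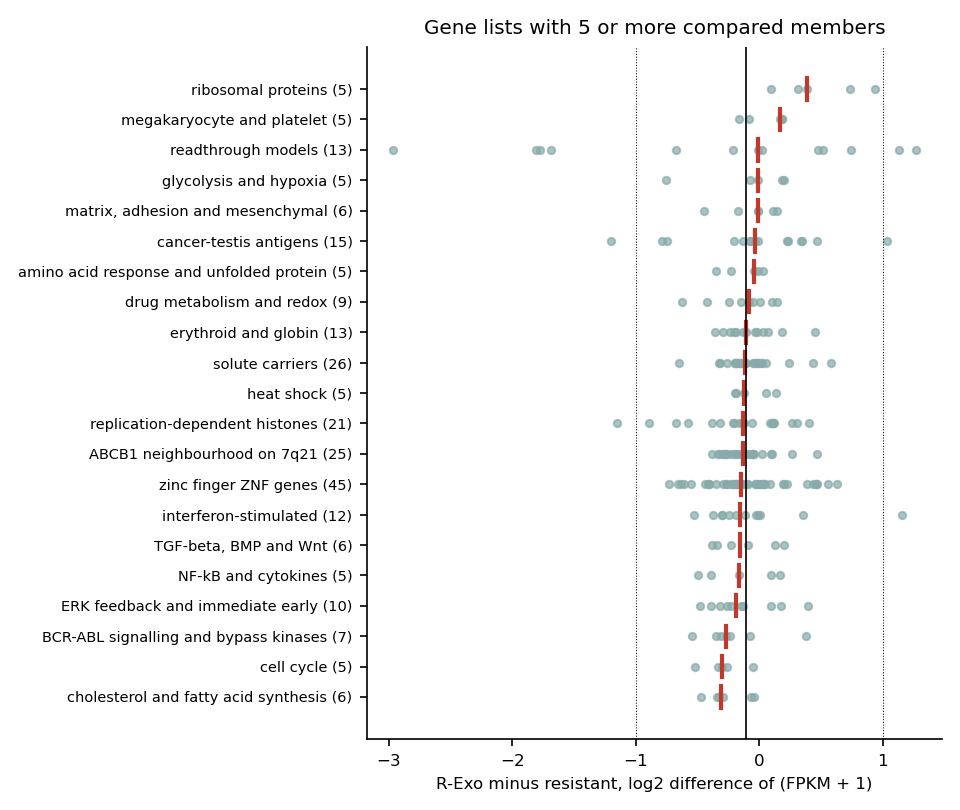
Log2 difference of (FPKM + 1), R-Exo minus resistant (x axis), for the compared members of the 21 gene lists with at least 5 (y axis, number in brackets). Each dot is a gene, the red bar is the list's median, the solid line is the median of all 1320 genes (−0.11) and dotted lines mark the 2-fold limit. Readthrough models span the widest range, from −2.96 to 1.27, and the ribosomal list stands at a median of 0.38.

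Some genes were past the limit in both pairs of libraries. Of 988 genes compared in both, 29 (2.94%) were past it for R-Exo against resistant and 23 (2.33%) for S-Exo against parental. The 6 past it in both are 20.7% of the 29 and 26.1% of the 23. SMIM11B, TOMM6, AC008878.3 and NPIPA3 were higher in R-Exo than in resistant and in S-Exo than in parental, and none was lower in both. BEST1 was higher in R-Exo and lower in S-Exo, and AC118553.2 the reverse. All of these genes but BEST1 share 50% or more of their words with other genes. Of all compared genes in that class, 26.6% were past the limit in the R-Exo pair and 23.5% in the S-Exo pair. How far shared words account for the overlap was not tested. AC008878.3, which overlaps ARHGEF18, was listed at 0 in parental and resistant and had 1.74 FPKM with R-Exo and 1.99 with S-Exo. Across the 988 genes, which are not independent replicates, Pearson's r of the 2 differences was 0.03. In the 721 genes with under 10% shared words it was −0.10.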

How the data were processed

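The authors deposited 1 table of FPKM values with a column for each of 4 libraries. Its name gives the unit and says that differentially expressed genes were selected, and its selection rule is not given in the sources used. The submitters' processing notes list SAMtools 0.1.18, TopHat2, GATK and Picard, with no role for any. Which genome build, gene annotation and counting program were used is likewise not stated. FPKM keeps no read number, so the depth is unknown and no interval could be set on a value.

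The difference was log2 of (FPKM + 1) in the R-Exo library minus the same in the resistant library, which understates differences of low genes. Symbols, positions, overlaps and transcript sequences came from GENCODE release 29 (GRCh38), where all 2288 identifiers were found, 2283 with the same symbol. Shared words are the distinct 31-base words of a gene's transcripts, on either strand, that also occur in transcripts of another protein-coding gene. Named were the 20 highest and 20 lowest genes with at least 5 FPKM in either library, up to 4 members of each gene list, ABCB1, the 3 genes on each side of the limit and the 5 highest values. Further genes past the limit, genes with few shared words and further list members were chosen after their values were seen. The members and the gene lists were chosen with earlier results of these data known, and the name pattern for readthrough models was corrected after values were seen. Alternatives tried were 2 re-scalings, the absence of a filter, a minimum of 5 FPKM, a pseudocount of 0.1, a limit of 1.5-fold, a plain ratio and other limits on shared words. The comparison of libraries was tested on simulated data, with known differences planted in 200 genes. The shared words, locus sums and gene lists were not tested in this way. The steps were run with Python 3.11.15, pandas 2.3.3, NumPy 2.4.6, SciPy 1.17.1 and Matplotlib 3.10.9.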

Additional observations from a re-analysis of the deposited data

How the results depend on the processing

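No gene past the limit changed direction after quantile normalization. The other alternatives could not have turned one. The pseudocount, the filters, the limit and the plain ratio leave the sign as it is. Re-scaling takes off only the median of −0.11. R-Exo against resistant had 36 higher and 49 lower genes with a pseudocount of 0.1, 10 and 10 with a minimum of 5 FPKM, 47 and 71 with a limit of 1.5-fold and 38 and 57 with the plain ratio of FPKM. S-Exo against parental had 54 and 30, 9 and 6, 52 and 37, and 49 and 28 in the same order. Genes past the limit in both pairs numbered 11 with a pseudocount of 0.1, 3 with the minimum of 5 FPKM and 16 with the 1.5-fold limit. List members past the limit numbered 14, 2, 19 and 18 under the 4 settings. The median difference was −0.052 with no filter, −0.020 after quantile normalization and by construction 0 after re-scaling, and the median absolute difference was 0.26 with a pseudocount of 0.1. A plain ratio could not be given for 11 genes with a value listed at 0. After re-scaling 24 genes were higher and 17 lower. MT-ND3 (0.89) and AC007240.1 (−0.99) were within the limit after quantile normalization, and AC007240.1 (−0.98) after re-scaling. The order of list medians also depended on the setting: the highest was ribosomal except after quantile normalization (megakaryocyte and platelet, 0.24), and the lowest was BCR-ABL kinases with a pseudocount of 0.1 (−0.40) or the plain ratio (−0.42), cell cycle after quantile normalization (−0.31) and readthrough models with the minimum of 5 FPKM (−0.89). The pseudocount weighs on low genes by its construction, and other causes of these shifts were not tested. No paired analysis was possible because each group had 1 library. The depth is unknown, so counting error could not be set.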

Other observations

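The table also held 912 rows with a running number and no gene name. Of these, 559 had at least 1 FPKM in R-Exo or resistant, and 8 were higher and 5 lower past the 2-fold limit (2.33%), with a median difference of −0.10. For S-Exo against parental, 454 were compared, 3 were higher and 6 lower (1.98%).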
